A study of Mus musculus with 9 samples.

Results

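Fgd5 and 9 other genes that mark long-term hematopoietic stem cells (LT-HSCs) were followed through RNA sequencing of sorted LT-HSCs from mice with a normal or a deleted set of class IA phosphoinositide 3-kinase (PI3K) catalytic genes. The 10 genes were Fgd5, Tie1, Ctnnal1, Procr, Slamf1, Tek, Robo4, Ly6a, Cd34 and Mllt3, out of 47643 genes counted, and all 10 were among the 18205 genes with enough counts to be tested. They were selected on what is known of LT-HSC markers and chosen by their measured levels in these same WT, δKO and TKO libraries, so their differences between genotypes are given as a description, and the test results for them are printed without being read as support. In the cells that lacked all 3 PI3K genes, 7 of the 10 markers were higher in every library than in every wild-type library, as were 6.88% of all genes tested. Fgd5 was the furthest apart, at 3.06 times its wild-type level. Procr, Ly6a and Cd34 were not separated.

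LT-HSCs sit at the top of the blood lineage, divide rarely and can rebuild all blood cells of an irradiated host. They are isolated by surface proteins, among them CD150 (encoded by Slamf1) and Sca-1 (encoded by Ly6a), and they share a set of genes with the endothelium, from which they arise in the embryo. Of the 10 genes, Tie1, Tek, Robo4 and Procr encode surface receptors that are also prominent on endothelial cells. Fgd5 encodes an exchange factor for the small GTPase Cdc42, and Ctnnal1 a cytoplasmic protein related to alpha-catenin. Cd34 encodes a sialomucin of early blood progenitors and vessels, and Mllt3 encodes a chromatin reader of the super elongation complex.

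The groups were TKO, δKO and WT, with 3 libraries each. TKO donor cells carried Pik3calox-lox, Pik3cblox-lox and Pik3cd-/- with Mx1-Cre, a Cre recombinase driven by an interferon-inducible promoter that is active in blood cells and in some other tissues. δKO donor cells carried the same 3 alleles without Mx1-Cre, and so lacked Pik3cd alone, from the germline. WT donor cells carried Mx1-Cre and no targeted allele. All donors were on the C57BL/6 strain. All recipients were lethally irradiated B6.SJL mice 6 to 8 weeks old, and all received 2 injections of 250 μg of pIpC, which switches on Mx1-Cre, 48 hours apart. Marrow was harvested 4 weeks later, pooled from the 7 recipients of a group, and sorted for donor-derived Lin-cKit+Sca1+Flk2-CD48-CD150+ cells. Because δKO cells carry no Cre, the effect of Cre itself cannot be told apart from that of Pik3ca and Pik3cb loss between TKO and δKO. Between δKO and WT, Pik3cd loss cannot be told apart from the lack of Mx1-Cre and the presence of the lox alleles.

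The libraries held 31300343 to 60386097 counts on genes. Levels are given as CPM, counts relative to the size of the library, corrected for its makeup by TMM factors. The 10 genes had between 54 counts (Ly6a in δKO replicate 1) and 8988 counts (Mllt3 in TKO replicate 1) in a library, so the spread between libraries and not counting error set their precision. One δKO library has a number in the count table that no label has, and is named the unnumbered library here. The δKO libraries resembled each other least, with correlations of log2 CPM from 0.802 to 0.863, against 0.905 to 0.912 in WT and 0.856 to 0.906 in TKO. Xist, which is transcribed from the inactive X chromosome of female cells, was at 3227 to 6394 CPM in 5 libraries (WT replicate 2, δKO replicates 1 and 2, TKO replicates 1 and 2) and at 32.1 to 59.5 CPM in the other 4, so the libraries of a group held cells of different sex and were not equal parts of one pool. Which donors or recipients stand behind each library is not given in the sources used here, and p-values measure the spread between these libraries. Mitochondrial genes took 15.5% to 18.0% of the counts in WT, 10.4% in δKO replicate 1 and 18.1% and 18.4% in the other δKO libraries, and 9.35%, 16.6% and 7.63% in TKO replicates 1 to 3. The 3 libraries with the lowest share, TKO replicates 1 and 3 and δKO replicate 1, also had 3 of the 4 highest sums of the 10 markers, and the other of these 4 was TKO replicate 2. The part of this share in the marker levels was not tested. Among the targeted genes, Pik3cb was at 63.6, 44.6 and 60.4 CPM in WT and at 33.5, 25.5 and 33.9 CPM in TKO. In δKO, which keeps this gene, Pik3cb was at 101 and 33.2 CPM in replicates 1 and 2 and 68.7 in the unnumbered library, so δKO overlapped both other groups. Pik3cd was at 98.2 to 139 CPM in WT, 38.5 to 91.2 CPM in δKO and 71.2 to 73.5 CPM in TKO. Pik3ca overlapped between all groups (45.8 to 65.0 CPM in WT, 52.8 to 68.0 CPM in TKO), and reads over whole genes do not show the loss of single exons.

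**Figure D1:**
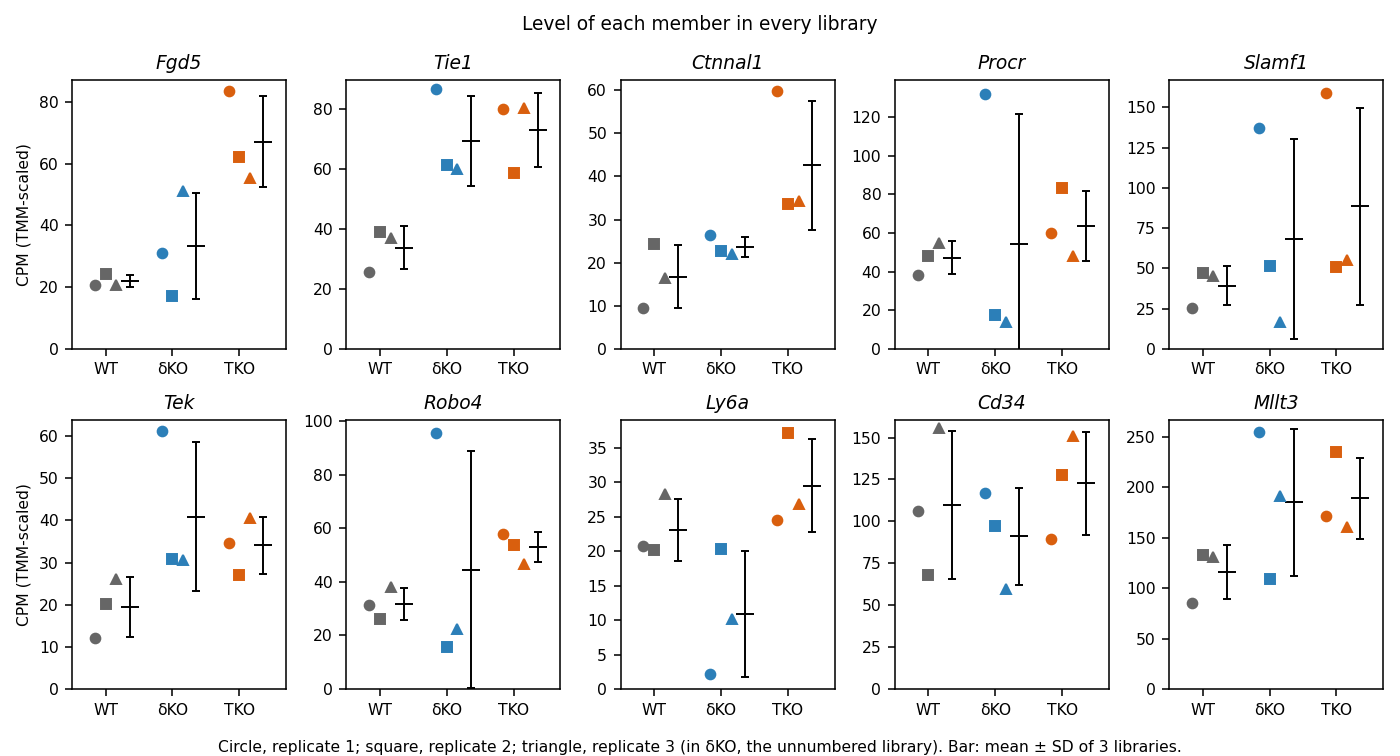
Level of the 10 genes in each library, as CPM on a linear axis that starts at 0; points are libraries, the black bar is the mean and SD of 3 libraries, and SD bars that would pass below 0 are cut there. The 3 TKO libraries of Fgd5 sit between 55.4 and 83.6 CPM, above all other libraries, whereas for Procr, Slamf1, Tek and Robo4 the SD of δKO is set by 1 library.

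Per kilobase of exon, a scale on which levels of different genes can be compared, Procr was the most abundant marker in WT (mean 23.3 CPM per kilobase, n = 3), followed by Ly6a (19.2), Cd34 (15.1), Mllt3 (9.68), Tie1 (6.88), Slamf1 (6.37), Robo4 (5.99), Tek (4.13), Fgd5 (3.48) and Ctnnal1 (2.19). In this order each gene overlapped the next one among the 3 WT libraries, except that Fgd5 (3.30 to 3.85 CPM per kilobase) lay above Ctnnal1 (1.25 to 3.17). In TKO the mean of Fgd5 was 10.7 CPM per kilobase and stood before Robo4 (9.97) and Tek (7.23), but Fgd5 and Robo4 overlapped. Procr, Ly6a, Cd34 and Mllt3 led in TKO as in WT, each overlapping the next.

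Fgd5 (ENSMUSG00000034037.14) lies on chromosome 6 of mm10, from 91978878 to 92076004 on the + strand. Its level was 20.8, 24.2 and 20.7 CPM in WT replicates 1, 2 and 3. Fgd5 in δKO was 31.2 CPM in replicate 1, 17.2 in replicate 2 and 51.2 in the unnumbered library. Fgd5 in TKO was 83.6, 62.2 and 55.4 CPM in replicates 1, 2 and 3. The TKO libraries did not overlap WT or δKO, whereas δKO ranged from below all WT libraries to near the lowest TKO library. The WT values were the closest together of any marker, the highest being 1.17 times the lowest. The fitted log2 ratio of Fgd5 was 1.61 for TKO to WT (standard error 0.40), 1.02 for TKO to δKO (0.40) and 0.60 for δKO to WT (0.39). Of all genes tested, 5.38% had a larger TKO to WT ratio. The ratio of δKO to WT rested on the unnumbered library, without which it was 0.14. 2 annotated genes overlap Fgd5, Gm44095 on the same strand and 4930466I24Rik on the opposite one, at most at 3.06 and 5.04 CPM, and whether the counting used strand is not given in the sources used here.

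Genes whose log2 CPM followed Fgd5 most closely over the 9 libraries were N4bp2 (Pearson's r = 0.965), Gprasp2 (0.929), Rcn3 (0.920), Hdac7 (0.918), Ipp (0.902), Lrp6 (0.892), Nxpe3 (0.887) and Rtl8c (0.885), out of 10774 other genes averaging at least 5 CPM. These correlations carry no p, since the 9 points are libraries of 3 genotypes that differ in depth and are not independent samples of 1 population. N4bp2 was at 160 to 179 CPM in WT, at 150 to 231 CPM in δKO and at 249 to 338 CPM in TKO, so its TKO libraries also lay above all others. Hdac7, a class IIa histone deacetylase, spanned 63.5 to 73.4 CPM in WT and 78.9 to 85.4 CPM in TKO, a much smaller step than that of Fgd5. No other LT-HSC marker was among these 8 genes. Of the 10 markers, Ctnnal1 was nearest to Fgd5 (r = 0.777, with 71 genes above it), then Mllt3 (0.656) and Tie1 (0.615). Cd34 had an r of −0.05 with Fgd5 and Ly6a one of 0.118.

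Ctnnal1 (ENSMUSG00000038816.14, chromosome 4, 56810935 to 56865188, − strand) was the other marker with TKO above all 6 remaining libraries. It was measured at 9.54, 24.3 and 16.5 CPM in WT replicates 1 to 3. Ctnnal1 in δKO was 26.4 and 22.6 CPM in replicates 1 and 2 and 22.0 in the unnumbered library. Ctnnal1 in TKO was 59.8, 33.5 and 34.4 CPM in replicates 1 to 3. The δKO libraries were the tightest of any marker in that group, with the highest 1.20 times the lowest, and they overlapped WT only through WT replicate 2. Its log2 ratio was 1.34 for TKO to WT (standard error 0.43), 0.85 for TKO to δKO and 0.50 for δKO to WT. Without TKO replicate 1, which held the highest value, the first was 1.02 and the second 0.52. The third was 0.22 without WT replicate 1 and 0.86 without WT replicate 2.

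Tie1 and Tek encode the only members of the Tie family of receptor tyrosine kinases. Tek, also called Tie2, binds angiopoietins, and Tie1 has no established ligand of its own and modulates Tek. Both lie on chromosome 4, Tie1 (ENSMUSG00000033191.14) from 118471191 to 118490061 and Tek (ENSMUSG00000006386.15) from 94739289 to 94874976. Tie1 was at 25.5, 39.0 and 37.0 CPM in WT replicates 1 to 3. Tie1 in δKO was 86.6 and 61.4 CPM in replicates 1 and 2 and 60.0 in the unnumbered library. Tie1 in TKO was 80.1, 58.7 and 80.4 CPM in replicates 1 to 3. Every δKO and every TKO library was above every WT library, and δKO and TKO overlapped each other. Tek showed the same order, with 12.0, 20.2 and 26.2 CPM in WT replicates 1 to 3. Tek in δKO was 61.3 and 30.8 CPM in replicates 1 and 2 and 30.6 in the unnumbered library. Tek in TKO was 34.7, 27.1 and 40.5 CPM. The lowest TKO library of Tek was 27.1 CPM, close to the highest WT library at 26.2 CPM, and with upper-quartile factors in place of TMM the groups overlapped.

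The log2 ratio of Tie1 was 1.11 for TKO to WT (standard error 0.30), 1.04 for δKO to WT (0.30) and 0.08 for TKO to δKO (0.30). For Tek the values were 0.81 (0.42), 1.07 (0.42) and −0.26 (0.42). Tie1 and Tek thus separated WT from both δKO and TKO, and overlapped between δKO and TKO. For TKO to δKO the sign for Tek changed without δKO replicate 1 (0.15) and that for Tie1 without the unnumbered δKO library (−0.02). Of all genes tested, 0.84% had all 6 TKO and δKO libraries above all 3 WT libraries, and Tie1 and Tek were the markers among them. That count uses the contrasts by which the markers were known, and nothing is read from it. Across the 9 libraries Tie1 and Tek were the most closely related pair of markers (Pearson's r = 0.920). WT replicate 1 was the lowest library for both and δKO replicate 1 the highest.

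The 250 bases before the RefSeq start of transcription are shown for 2 pairs of markers, Fgd5 and Ctnnal1, which separated TKO from all others, and Tie1 and Tek, which separated WT from all others. The sequences are those of RefSeq on build GRCm38.p6, which is mm10, and 9 of the 10 markers matched an entry. Ly6a did not. The windows are chr6:91978715-91978964 (+ strand) for Fgd5, chr4:56865212-56865461 (− strand) for Ctnnal1, chr4:118489850-118490099 (− strand) for Tie1 and chr4:94739039-94739288 (+ strand) for Tek. The gene bounds given above, from GENCODE, begin further upstream for 2 of these genes, so that 87 bases of the Fgd5 window and 212 bases of the Tie1 window lie inside the gene, against 0 for Ctnnal1 and Tek. Each is written 5′ to 3′ on the strand of its gene, and capitals mark the ETS core GGAAG on either strand.
Fgd5: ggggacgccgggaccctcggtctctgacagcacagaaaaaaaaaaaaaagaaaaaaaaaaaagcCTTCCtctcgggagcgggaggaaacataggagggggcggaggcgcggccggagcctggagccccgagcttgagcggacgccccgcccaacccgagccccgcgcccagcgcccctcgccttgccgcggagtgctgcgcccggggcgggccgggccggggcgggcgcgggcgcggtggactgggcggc
Ctnnal1: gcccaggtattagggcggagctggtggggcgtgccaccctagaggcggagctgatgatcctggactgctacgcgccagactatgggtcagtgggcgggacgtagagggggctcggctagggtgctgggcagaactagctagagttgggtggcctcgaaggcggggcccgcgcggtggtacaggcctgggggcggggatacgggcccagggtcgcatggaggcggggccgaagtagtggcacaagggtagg
Tie1: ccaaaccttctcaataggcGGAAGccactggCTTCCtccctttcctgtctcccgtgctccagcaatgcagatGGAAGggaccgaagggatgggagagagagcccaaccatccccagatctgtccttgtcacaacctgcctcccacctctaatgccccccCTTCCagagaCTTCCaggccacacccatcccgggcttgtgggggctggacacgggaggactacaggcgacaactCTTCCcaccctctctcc
Tek: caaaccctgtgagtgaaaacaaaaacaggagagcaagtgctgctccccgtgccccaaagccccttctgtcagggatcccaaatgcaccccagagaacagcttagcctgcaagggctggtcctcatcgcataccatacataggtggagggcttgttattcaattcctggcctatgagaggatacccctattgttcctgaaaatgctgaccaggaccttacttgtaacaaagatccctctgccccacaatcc
The Tie1 window held 6 matches to GGAAG, the Fgd5 window 1 and the Ctnnal1 and Tek windows 0. GC content was 71.6% for Fgd5, 68.4% for Ctnnal1, 60.4% for Tie1 and 51.2% for Tek. ETS factors are known regulators of endothelial and blood genes, but the core is short and was found in 64.1% of 32851 RefSeq windows of the same length, against 6 of the 10 windows of the markers (Mllt3 has 2). The E-box CAGNTG was found in 6 of the 10 windows and in 44.8% of all. The GATA motif AGATAA, the RUNX motif TGTGGT and the forkhead motif GTAAACA were in none of the 10 and in 9.99%, 14.0% and 3.17% of all windows. Both strands were searched for each motif on its own, so matches to different motifs may overlap. A match is a description of letters and not a bound site.

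Robo4 and Procr encode receptors with roles in vessels, Robo4 as a Roundabout receptor that binds Unc5b and Procr as the receptor of activated protein C and the antigen CD201 of stem cell sorts. Robo4 (ENSMUSG00000032125.19, chromosome 9, 37401897 to 37415115) was at 31.3, 26.1 and 37.9 CPM in WT replicates 1 to 3. Robo4 in δKO was 95.5 and 15.5 CPM in replicates 1 and 2 and 22.4 in the unnumbered library. Robo4 in TKO was 57.9, 53.8 and 46.8 CPM, above all WT libraries and the closest together of any marker in that group. Procr (ENSMUSG00000027611.12, chromosome 2, 155751117 to 155755471) was at 38.4, 48.3 and 55.0 CPM in WT replicates 1 to 3. Procr in δKO was 132 and 17.3 CPM in replicates 1 and 2 and 14.1 in the unnumbered library. Procr in TKO was 59.9, 83.1 and 47.8 CPM, which overlapped WT. The 2 genes followed each other over the libraries (Pearson's r = 0.904), and in δKO both had 1 library above and the other 2 below all libraries of WT.

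The fitted log2 ratio of TKO to WT was 0.73 for Robo4 (standard error 0.56) and 0.43 for Procr (0.69), the latter from 0.19 without TKO replicate 2 to 0.60 without TKO replicate 3. Against δKO the ratios were 0.25 and 0.23. These last values depended on single δKO libraries. Without δKO replicate 1 they were 1.48 and 2.01, and all TKO libraries of both genes then lay above the remaining δKO libraries. Robo4 was at −0.16 without δKO replicate 2, and Procr at −0.23 without the unnumbered δKO library. For δKO to WT the values were 0.48 for Robo4 and 0.20 for Procr with all libraries, and −0.74 and −1.59 without δKO replicate 1. In that comparison Robo4 rose to 0.90 without δKO replicate 2, and Procr to 0.65 without the unnumbered δKO library.

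**Figure D2:**
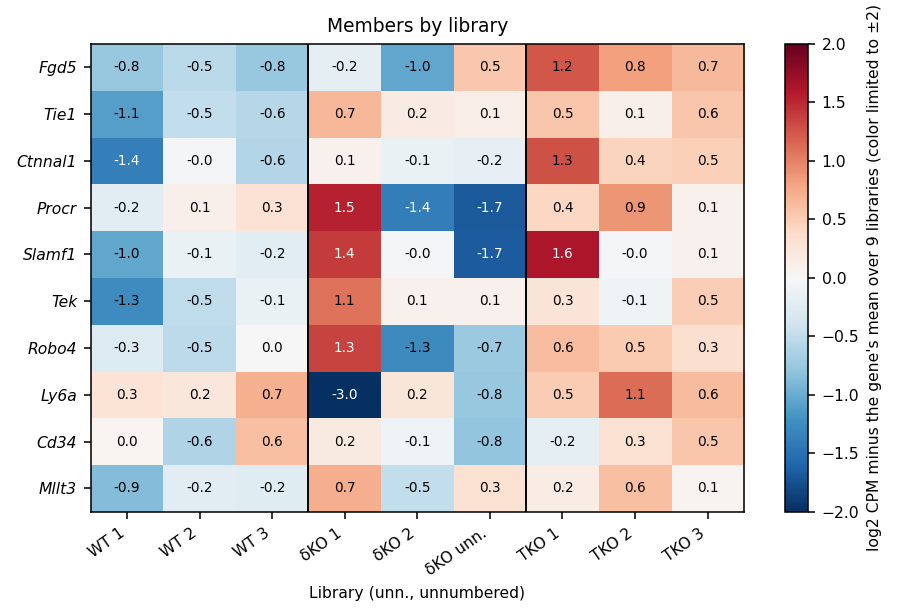
Log2 CPM of the 10 genes (rows) in the 9 libraries (columns), each gene minus its mean over the libraries; red is above and blue below that mean. TKO replicate 3 is above the mean for all 10 genes and WT replicate 1 for 2. In Procr, Tek, Robo4 and Ly6a δKO replicate 1 departs from the other δKO libraries, and in Slamf1 all δKO libraries lie apart.

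Slamf1 and Ly6a encode CD150 and Sca-1, by which the cells were sorted, so all libraries come from cells gated on both proteins. Slamf1 (ENSMUSG00000015316.11, chromosome 1, 171767127 to 171801184) was at 25.2, 47.3 and 45.1 CPM in WT replicates 1 to 3. Slamf1 in δKO was 137 and 51.3 CPM in replicates 1 and 2 and 16.4 in the unnumbered library. Slamf1 in TKO was 159, 51.0 and 55.2 CPM. TKO did not overlap WT, but the step between the highest WT library (47.3 CPM) and the lowest TKO library (51.0 CPM) was small, and it closed with upper-quartile factors. Its log2 ratio of TKO to WT was 1.17 (standard error 0.66) and was 0.44 without TKO replicate 1. Ly6a (ENSMUSG00000075602.10, chromosome 15, 74994877 to 74998031) was at 20.8, 20.1 and 28.3 CPM in WT and 24.5, 37.3 and 26.9 CPM in TKO, which overlapped. Ly6a in δKO was 2.15 CPM in replicate 1, 20.4 in replicate 2 and 10.2 in the unnumbered library. The low value of δKO replicate 1 was measured in cells gated on Sca-1 protein, and that library was the lowest of the 9 for Ly6a while it was the highest for Tie1, Procr, Tek, Robo4 and Mllt3.

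The log2 ratio of Ly6a was 0.36 for TKO to WT (standard error 0.63), 1.43 for TKO to δKO and −1.08 for δKO to WT. Without δKO replicate 1 the last 2 values were 0.94 and −0.59, and without δKO replicate 2 they were 2.25 and −1.89. Of the stretches of 50 bases in Ly6a transcripts, 19.0% are also found in other annotated genes, mostly in its relative Ly6c1, so reads could be shared between them. Ly6c1 itself was at most at 1.50 CPM. For the other 9 markers the share was at most 2.38%, in Slamf1.

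Cd34 (ENSMUSG00000016494.9, chromosome 1, 194938819 to 194961279), which adult mouse LT-HSCs carry at low levels on their surface and progenitors at higher levels, had the smallest log2 ratio of TKO to WT among the markers. It was at 106, 67.9 and 155 CPM in WT replicates 1 to 3. Cd34 in δKO was 117 and 96.9 CPM in replicates 1 and 2 and 59.8 in the unnumbered library, and in TKO it was 89.5, 128 and 151 CPM. All 3 groups overlapped. The log2 ratio of TKO to WT was 0.16 (standard error 0.36), and it was −0.10 without WT replicate 2. The antisense gene Gm16897 overlaps Cd34 and was at most at 8.56 CPM.

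Mllt3 (ENSMUSG00000028496.17, chromosome 4, 87769925 to 88033364), known for its part in maintaining human stem cells in culture, was at 85.2, 133 and 131 CPM in WT replicates 1 to 3. Mllt3 in δKO was 255 and 110 CPM in replicates 1 and 2 and 191 in the unnumbered library. Mllt3 in TKO was 172, 235 and 160 CPM, all above WT. Its log2 ratio was 0.70 for TKO to WT (standard error 0.32), 0.67 for δKO to WT and 0.03 for TKO to δKO. The last ran from −0.24 without δKO replicate 2 to 0.33 without δKO replicate 1. The values of δKO spanned both other groups, and without δKO replicate 2 no δKO library overlapped WT.

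**Figure D3:**
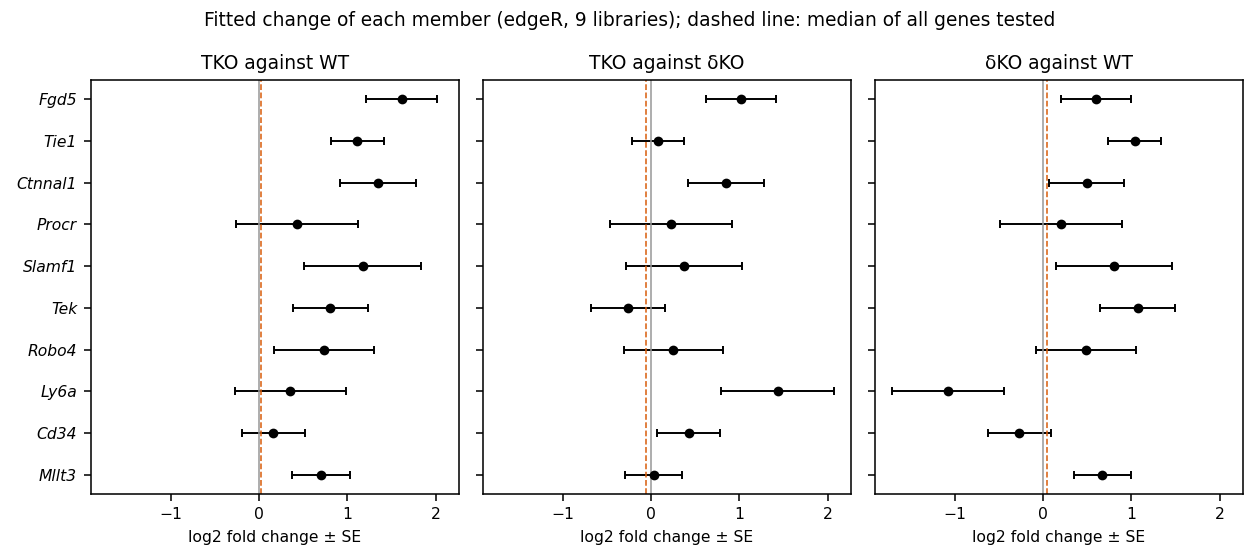
Fitted log2 fold change of each gene (point) with its standard error (bar) in the 3 comparisons from edgeR on 9 libraries; the dashed line is the median of all genes tested. In TKO against WT all 10 points lie above 0, from 0.16 for Cd34 to 1.61 for Fgd5, and in TKO against δKO Fgd5, Ctnnal1 and Ly6a lie the furthest above 0.

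For the 10 markers together, the median log2 ratio was 0.77 for TKO to WT, 0.31 for TKO to δKO and 0.55 for δKO to WT, and 10, 9 and 8 of them were above 0, beside 51.2%, 47.2% and 52.8% of all genes tested. Over all genes tested the medians were 0.02, −0.06 and 0.05. Each pair of these comparisons shares the libraries of 1 group. Of the 10 markers, 7 had all TKO libraries above all WT libraries, and none had all below, beside 6.88% and 7.47% of all genes tested. Against δKO, 3 markers had all TKO libraries above (Fgd5, Ctnnal1 and Ly6a, beside 6.98% of all genes) and none below (4.74%). Between δKO and WT, 2 had all δKO libraries above (Tie1 and Tek, beside 4.13%) and none below (7.39%). Fgd5 and Ctnnal1 had TKO above all 6 other libraries, as did 2.12% of all genes. The markers were known from these contrasts, so nothing is read from these counts.

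With edgeR's quasi-likelihood test no marker passed an adjusted p under 0.05 with more than 2-fold change in any of the 3 comparisons, where 0.00549% of all genes were called higher against WT, for TKO and for δKO alike. At an unadjusted p under 0.05, 3 markers were higher in TKO against WT (Fgd5, Tie1 and Ctnnal1), beside 1.68% of all genes, and none lower (2.5%). By the same measure Fgd5 and Ly6a were higher in TKO against δKO (4.6% of all genes) and none lower (5.56%), and Tie1 and Tek were higher in δKO against WT (3.65%) and none lower (3.36%). With DESeq2 on all 9 libraries Fgd5 and Tie1 were called higher in TKO against WT (0.353% of all genes), and with DESeq2 on those 2 groups alone Fgd5, Tie1 and Ctnnal1 were (1.43%). None was called lower there (0.296% and 1.61% of all genes). No marker was called by DESeq2 in the other 2 comparisons. Of all genes, DESeq2 on all libraries called 1.88% higher and 1.06% lower in TKO against δKO, and 0.367% and 0.662% in δKO against WT. On the groups compared it called 1.11% and 0.454%, and 0.296% and 0.758%. These calls are on the contrasts that the choice of the markers used, and nothing is read from them.

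**Figure D4:**
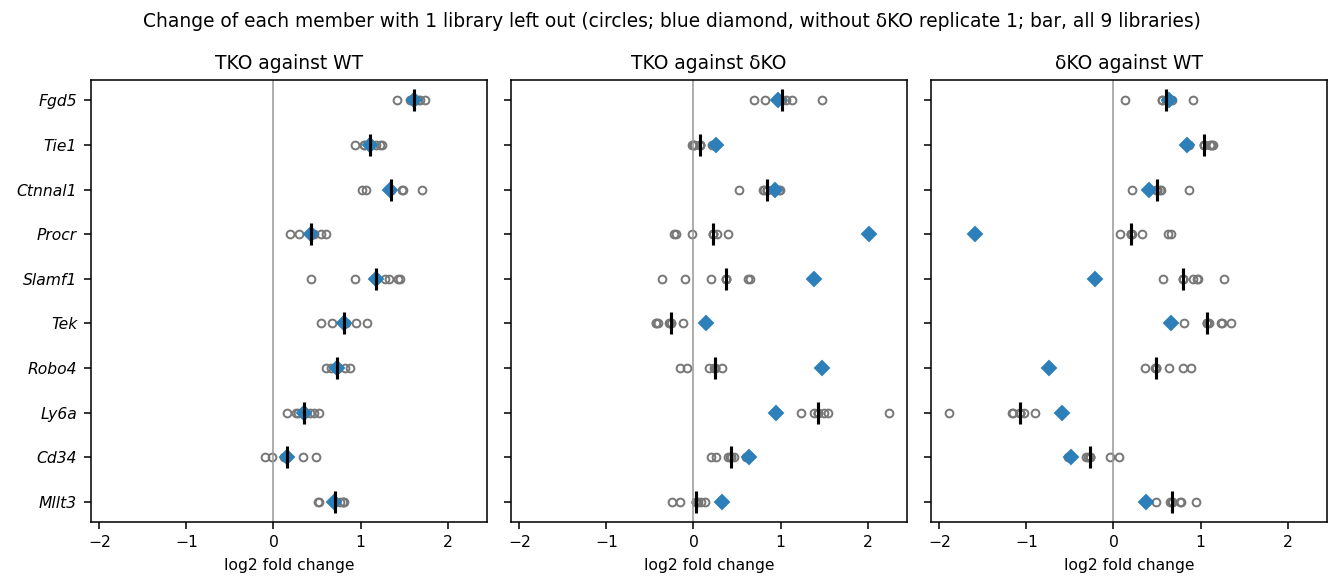
Log2 fold change of each gene with 1 library left out (circles), with δKO replicate 1 left out (blue diamonds) and with all 9 libraries (bars) in the 3 comparisons. In TKO against WT all circles of 9 genes stay above 0 and those of Cd34 reach −0.10, whereas without δKO replicate 1 Procr moves to 2.01 in TKO against δKO and to −1.59 in δKO against WT.

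Other ratios also moved when single libraries were left out. For TKO to WT, Ly6a ran from 0.15 without TKO replicate 2 to 0.53 without WT replicate 3, and Cd34 reached 0.49 without WT replicate 3. For δKO to WT, Mllt3 was 0.37 and Tek 0.66 without δKO replicate 1, and Fgd5 was 0.92 without δKO replicate 2. For TKO to δKO, Slamf1 was 0.37 with all libraries and ran from −0.37 without TKO replicate 1 to 1.38 without δKO replicate 1.

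Over the 45 pairs of markers the median Pearson's r of log2 CPM across the 9 libraries was 0.418, from −0.546 between Tek and Ly6a to 0.920 between Tie1 and Tek, and 37 pairs were above 0. After Tie1 with Tek and Procr with Robo4, the closest were Tie1 with Ctnnal1 (0.817) and Fgd5 with Ctnnal1 (0.777). Ly6a went against Mllt3 (−0.432) and Robo4 (−0.363). Each of these values includes δKO replicate 1, which held the highest value of 5 markers and the lowest of Ly6a. Within groups, the median SD of log2 CPM over the 10 markers was 0.349 (WT), 0.704 (δKO) and 0.311 (TKO), and over all 10775 genes averaging at least 5 CPM it was 0.313, 0.701 and 0.395. The wide spread in δKO was thus of the size found over genes at large.

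A list of 28 other genes named as LT-HSC markers or regulators, of which 26 were tested, is given beside the 10. Between TKO and WT, 22 of the 26 had a positive log2 ratio (51.2% of all genes tested), with a median of 0.64. All TKO libraries were above all WT libraries for 12 genes and below for 1, beside the 6.88% and 7.47% given above. None was called by edgeR, and 4 were higher at an unadjusted p under 0.05 (1.68% of all genes). DESeq2 on these 2 groups called 3 higher, Gimap1, Gimap6 and Ifitm1 (1.43% of all genes), and DESeq2 on all libraries called Ifitm1 (0.353%). Ifitm1, an interferon-induced transmembrane protein, was at 47.1, 66.7 and 93.1 CPM in WT replicates 1 to 3. The δKO libraries were at 42.5 to 91.7 CPM and those of TKO at 189 to 340 CPM, so TKO was above all other libraries, as for Fgd5. Gimap1, a GTPase of immune cells, was at 44.5 to 72.6 CPM in WT and 92.2 to 142 CPM in TKO, and Gimap6, a relative of it, at 33.3 to 41.7 and 107 to 131 CPM. Clec1a was the gene with all TKO libraries below WT, at 4.94 to 27.9 CPM in WT and 2.75 to 4.81 CPM in TKO. Between TKO and δKO 16 of the 26 had a positive sign (47.2% of all genes tested), with a median of 0.20. In δKO against WT 18 did (52.8%), with a median of 0.35. Without δKO replicate 1 these medians were 0.61 and −0.05, without δKO replicate 2 the first was 0.04 and without the unnumbered δKO library 0.05, and without WT replicate 1 the second was 0.18 and without the unnumbered δKO library 0.53. In these comparisons edgeR called none of the 26. At an unadjusted p under 0.05 it had 3 higher in TKO against δKO (Eng, Gimap1 and Ifitm1, beside 4.6% of all genes). By the same measure 2 were higher in δKO against WT (Hoxb5 and Gimap6, beside 3.65%). Eng and Hoxb5 were named after their values were seen. DESeq2 on all libraries called Gimap1 and Ifitm1 higher in TKO against δKO (1.88% of all genes), and on the groups compared Ifitm1 (1.11%). Kit, the remaining positive marker of the sort and named for that, was at 471 to 500 CPM in WT, 429 to 949 CPM in δKO and 522 to 689 CPM in TKO.

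Genes that act with the markers, or are close relatives of them, did not share one direction. Of 42 such genes 34 were tested. In TKO against WT, 14 were higher and 20 lower (51.2% and 48.8% of all genes tested), with a median log2 ratio of −0.13. The median was −0.25 without TKO replicate 1, 0.06 without TKO replicate 2 and 0.00 without WT replicate 3. Each of these 3 medians is over the 35 genes that passed the filter then. With all libraries none of the 34 was called by edgeR. At an unadjusted p under 0.05, 1 was higher and 3 were lower (1.68% and 2.5% of all genes). Podxl, a sialomucin related to Cd34, was at 12.9, 35.6 and 21.1 CPM in WT replicates 1 to 3 and at 148, 128 and 104 CPM in TKO. Podxl in δKO was at 13.2 to 67.5 CPM, so TKO was above all other libraries, with a log2 ratio of 2.45 to WT (standard error 0.55), called by DESeq2 on all libraries and on these 2 groups. Podxl and Cd34 thus had unlike values in the same libraries. Unc5b, a partner of Robo4, was called higher in TKO against WT by DESeq2 on these 2 groups, at 0.70 to 4.77 CPM against at most 0.11 CPM in WT. Cd244a, a receptor of the SLAM family to which Slamf1 belongs, was called lower by the same test, at 0.82 to 2.56 CPM in TKO and 4.36 to 8.98 CPM in WT, and DESeq2 on all libraries called it lower in TKO against δKO (2.80 to 14.6 CPM). Robo1 was at 3.89 to 5.17 CPM in TKO and 0.22 to 3.41 CPM in WT, and at 31.3 CPM in δKO replicate 1. Slamf6 was called higher in δKO against WT by DESeq2 on those 2 groups, on the counts of δKO replicate 1 (2.75 CPM), with 0 in the other δKO and all WT libraries. Angpt1, which encodes the ligand of Tek and was chosen after its values were seen, was at 117 to 226 CPM in WT, 158 to 414 CPM in δKO and 280 to 317 CPM in TKO. Cdc42, on which Fgd5 acts, also chosen after its values were seen, was at 272 to 294 CPM in WT and 198 to 313 CPM in TKO. Between TKO and δKO edgeR called none of these genes. At an unadjusted p under 0.05 it had 3 higher and 3 lower (4.6% and 5.56% of all genes). For δKO and WT it called none, and had 1 higher and 3 lower (3.65% and 3.36%).

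Markers of other cells differed in level between the libraries. In their sums TKO and WT overlapped for progenitor, endothelial, stromal and neutrophil genes, but not for erythroid and lymphocyte genes. The δKO sums overlapped both other groups for each of these lists. The 20 genes of multipotent and committed progenitors summed to 3128 to 13306 CPM in WT, 690 to 11957 CPM in δKO and 260 to 3349 CPM in TKO, in WT mostly Mpo, a granule enzyme of myeloid cells. Between TKO and WT, 18 of the 20 were lower (48.8% of all genes tested), with a median log2 ratio of −1.44. With a library left out the median ran from −2.55 without TKO replicate 2 to −1.075 without TKO replicate 1. None was called by edgeR. At an unadjusted p under 0.05, 5 were lower (2.5% of all genes), and DESeq2 on these 2 groups called Dntt and Fcgr3 lower (1.61%). All TKO libraries were below all WT libraries for 8 of the 20 (7.47% of all genes) and above for none (6.88%). Cebpe was at 22.6 to 39.1 CPM in WT and 0.19 to 15.0 CPM in TKO. WT replicate 1, with the lowest sum of the 10 LT-HSC markers (375 CPM), had the highest progenitor sum, and δKO replicate 1, with the highest marker sum (944 CPM), had a lower one than all but TKO replicate 1. Not all genes of the list followed this sum, since Gata1 and Epor, which belong to it, were highest in δKO replicate 1. In bulk RNA, fewer cells of a type and less RNA per cell cannot be told apart, and the part of progenitor genes in the marker levels was not tested.

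**Figure D5:**
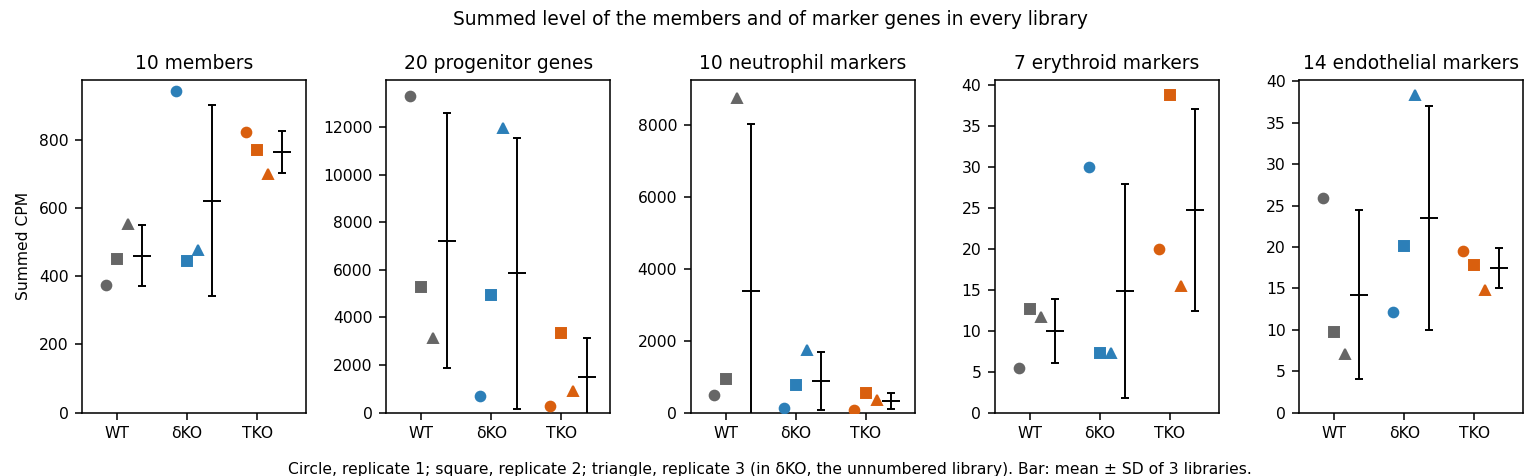
Summed CPM of the 10 genes and of markers of progenitors, neutrophils, erythroid and endothelial cells in each library; points are libraries, black bars the mean and SD of 3 libraries, cut at 0. The 10 genes sum to 698 to 821 CPM in TKO and 375 to 553 CPM in WT, progenitor genes sum to 260 to 3349 CPM in TKO and 3128 to 13306 CPM in WT, and endothelial markers stay at or under 38.4 CPM.

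The endothelial list bears on Tie1, Tek, Robo4 and Procr, since vessel cells carry them too. The sort was for donor-derived cells without lineage markers, and its purity is not given in the sources used here. The 14 genes of the list, of which 7 were tested, summed to 7.07 to 26.0 CPM in WT, 12.1 to 38.4 CPM in δKO and 14.8 to 19.6 CPM in TKO. Cdh5, which encodes the cadherin that defines endothelium, was at or below 0.45 CPM in every library, and 1 gene of the list had no counts at all. Tie1 alone was at 25.5 to 86.6 CPM. Flt1, a receptor of vascular endothelial growth factor, made up 21.2 of the 26.0 CPM of WT replicate 1 and 37.5 of the 38.4 CPM of the unnumbered δKO library. Without Flt1 the sums were 4.72 to 6.81 CPM in WT, 0.88 to 14.3 CPM in δKO and 12.7 to 17.4 CPM in TKO, so that TKO lay above WT. Of the 7 genes tested 5 had a positive log2 ratio of TKO to WT (51.2% of all genes tested), with a median of 0.92. The median was 0.59 without WT replicate 1 and 0.50 without TKO replicate 1, each over the 8 genes that passed the filter then. Kdr, the main receptor of that growth factor, was at 0.92 to 2.67 CPM in WT, 0.70 to 8.30 CPM in δKO and 3.42 to 4.39 CPM in TKO. Kdr and Flt1 were named after their values were seen. DESeq2 on the 2 groups called Stab2 higher in TKO against WT, at 1.31 to 8.87 CPM and 0.34 to 0.74 CPM. Neutrophil markers (10 genes) summed to 8737 CPM in WT replicate 3 and to 83.7 to 1736 CPM elsewhere, and their median log2 ratio of TKO to WT was −3.18, with 10 of 10 below 0, and −0.99 without WT replicate 3, with 8 below 0. Ngp, Camp and S100a8 had all TKO libraries below all WT libraries, beside 7.47% of all genes. DESeq2 on these groups called Mmp9 lower, beside 1.61% of all genes, although WT replicate 1 (0.03 CPM) lay below all TKO libraries (0.10 to 0.87 CPM). Erythroid markers summed to 5.48 to 12.6 CPM in WT, 7.26 to 30.0 CPM in δKO and 15.4 to 38.7 CPM in TKO, and DESeq2 on all libraries called Alas2 higher in TKO against δKO. Lymphocyte markers summed to 83.3 to 365 CPM in WT and 26.1 to 77.2 CPM in TKO, and Igkc and Nkg7 were called lower there by DESeq2 on these groups. Of the 4 lymphocyte genes tested 2 had a negative log2 ratio of TKO to WT (Igkc and Nkg7) and 2 a positive one (Cd79a and Cd79b). Stromal markers summed to at most 22.8 CPM in any library, with Col1a1 called lower in δKO against WT by DESeq2 and Pdgfrb at 6.54 to 13.3 CPM in WT and 0.64 to 4.72 CPM in TKO. Of the 5 stromal genes tested, 4 had a negative log2 ratio of TKO to WT and Col1a2 a positive one of 1.81, and 3 had a negative and 2 (Lepr and Col1a2) a positive one for δKO to WT. The part of these cells in the levels of the 10 genes was not tested.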

How the data were processed

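RNA was sequenced from donor-derived LT-HSCs in 9 libraries, 3 per genotype. The authors amplified cDNA with the Ovation RNA-Seq System V2, sequenced it on the HiSeq2000, trimmed reads with Trim Galore 0.3.7, checked them with FastQC 0.11.4, aligned them to mm10 with STAR 2.5.1b and counted reads per gene. The deposited raw counts were used as they stand, and the authors' normalized table was not used. The labels list 2 technical runs per library, and how they were joined is not given in the sources used here. Of the gene identifiers, 47224 were found in the GENCODE vM21 annotation without their version and 39106 with it.

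The 10 genes, the other lists and the tests were chosen with earlier results of these data known. Genes were filtered with filterByExpr of edgeR 4.0.16 (count minimum 10, minimum total 15) in R 4.3.3, scaled with TMM factors and fitted with the quasi-likelihood model on all 9 libraries with 1 mean per genotype (residual degrees of freedom 6), with Benjamini-Hochberg adjustment over 18205 genes. The standard error is the absolute log2 fold change divided by the square root of F. Called means an adjusted p under 0.05 with a change of more than 2-fold. Log2 CPM used a prior count of 2. Genes named are the 10 markers, the targeted genes, the 8 closest to Fgd5 and, from each list, those called by any test plus at most 3 with the largest separated change in TKO against WT averaging at least 5 CPM. Eng, Hoxb5, Kit, Angpt1, Cdc42, Ly6c1, Mpo, Cdh5, Kdr, Flt1, Cd79a, Cd79b, Lepr, Col1a2, Gata1, Epor and Fgd1, and the genes that overlap a marker, lie outside this rule and were named after their values were seen, and Xist was given to describe the libraries. Alternatives were RLE and upper-quartile factors, no filter, at least 10 counts in every library, a replicate block, edgeR and DESeq2 1.42.0 on the groups compared, DESeq2 on all libraries, and each library left out in turn. The medians of the lists with each library left out, and the endothelial sums without Flt1, were added after seeing the data. The fit was also run on simulated counts with known changes, and its outcome there is not given here. No pair of libraries agreed within sampling noise, so none was counted as 1. Figures were drawn with matplotlib 3.10.9 in Python 3.11.15.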

Additional observations from a re-analysis of the deposited data

How the results depend on the processing

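Over 17 alternatives, the log2 fold change of Fgd5 ran from 1.42 to 1.74 in TKO against WT, both ends with 1 library left out, and from 0.70 to 1.58 in TKO against δKO. In δKO against WT it ran from −0.0065 with the replicate block to 0.92. The block was fitted on the 8 numbered libraries and so leaves out the unnumbered δKO library, which was high in Fgd5. Same-numbered libraries deviated from their group means with correlations of −0.04 to 0.08, so the numbers were not taken to pair them. The median of the 10 markers ran from 0.64 to 0.98 in TKO against WT, from 0.02 to 0.94 in TKO against δKO and from 0.08 to 0.91 in δKO against WT. In TKO against WT, 9 of the 10 markers kept their sign under every alternative, the exception being Cd34; 3 did in TKO against δKO (Fgd5, Ctnnal1 and Ly6a) and 5 in δKO against WT. The block also took Cd34 from 0.43 to −0.03 in TKO against δKO.

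All TKO libraries were above all WT libraries for 5 markers with upper-quartile factors and for 7 or 8 with RLE factors or a library left out. Against δKO the count was 3, or 3 to 5 with a library left out (5 without δKO replicate 1), and in δKO against WT 2, or 2 to 4 (4 without δKO replicate 2). These alternatives, and those for the lists and the pattern of Fgd5, were chosen after seeing the data. The correlation of N4bp2 with Fgd5 ran from 0.955 to 0.972 with a library left out.

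Genes called over the whole table depended on the tool. In TKO against WT, edgeR called 1 higher and 0 lower (306 and 456 at an unadjusted p under 0.05), DESeq2 on all libraries 68 and 57, DESeq2 on the groups compared 270 and 304, and edgeR on the groups compared 8 and 1. In TKO against δKO, edgeR called 0 and 0 (838 and 1013 unadjusted), DESeq2 343 and 194 on all libraries and 190 and 78 on the groups compared. In δKO against WT, edgeR called 1 and 0 (664 and 612 unadjusted), DESeq2 67 and 121 on all libraries and 55 and 141 on the groups compared, and edgeR on the groups compared 0 higher. With each library left out, edgeR called 1 to 3 higher and 0 to 1 lower in TKO against WT, the highest without δKO replicate 1. Of the listed genes other than the 10 markers, edgeR called 0, DESeq2 6 on all libraries and 14 on the groups compared, and edgeR on the groups compared 1. The cause of these differences was not tested. With 3 libraries a group and a common biological coefficient of variation of 0.805, the standard errors of the markers reached 0.69 on the log2 scale in TKO against WT.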

Other observations

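Several genes outside the 10 markers were far higher in δKO replicate 1 than in any other library and are given here as values, chosen after they were seen. Gata1, the erythroid and megakaryocyte transcription factor, was at 166 CPM there and at 1.03 to 26.4 CPM in the other 8 libraries. Epor, the erythropoietin receptor, was at 46.4 CPM there and at 0.92 to 14.3 CPM elsewhere. Fgd1, a relative of Fgd5, was at 59.8 CPM there and at 3.88 to 17.2 CPM elsewhere, and Robo1 at 31.3 CPM and 0.22 to 5.17 CPM. Mpo was at 99.2 CPM in that library, at 7226 CPM in the unnumbered δKO library and at 59.9 CPM in TKO replicate 1. The library also had the fewest genes detected, 18180, against 18500 to 22703 in the others.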
